A study of Homo sapiens with 5 samples.

Results

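The heat shock proteins and chaperonins of the human genome are encoded by 83 genes as defined here, of the 20037 protein-coding genes that RefSeq places on the standard chromosomes of hg38. Members were chosen by symbol alone: genes beginning with HSPA, HSPB, HSPD, HSPE, HSPH, HSP90 or DNAJ, genes beginning with CCT and a digit, and TCP1. HSPBAP1, HSPBP1 and pseudogenes were left out. The set holds 3 HSP90 genes, 14 HSP70 genes (HSPA), 1 HSP110 gene (HSPH1), 3 genes of the mitochondrial chaperonin, 10 genes of the cytosolic chaperonin family (CCT), 7 small heat shock genes (HSPB) and 45 DNAJ genes. Among them are 2 readthrough genes, HSPE1-MOB4 and DNAJC25-GNG10, which share a start with HSPE1 and DNAJC25.

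The peak lists came from CUT&Tag, in which an antibody directs a transposase to chromatin and the DNA tagged around the bound protein is sequenced. All 5 libraries were made from HepG2, a human liver cancer cell line. The wild type library profiled Flag-tagged ENL, a chromatin reader whose YEATS domain binds acylated histone lysines, and the Y78A library profiled Flag-tagged ENL in which tyrosine 78 is replaced by alanine. The other libraries profiled H3K9bhb, H3K9ac and H3K9cr, which are β-hydroxybutyrylation, acetylation and crotonylation of lysine 9 of histone H3. The design asked whether ENL and H3K9bhb meet on native chromatin. It describes cells with a stable Flag-ENL transgene for the Flag and H3K9bhb profiles. Its promoter, the number of clones, whether endogenous ENL was still present and whether the H3K9ac and H3K9cr profiles used the same cells were not given in the sources used. Peak names inside the H3K9ac list begin with ENL1 rather than with the mark, so its values rest on the sample label alone. Each group is 1 library, so no difference between libraries has a replicate check and no p-value is given.

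Chaperones bind unfolded or partly folded proteins and help them reach or keep their shape. HSP70 proteins bind short exposed stretches in a cycle driven by ATP, J-domain proteins (DNAJ) deliver clients and start ATP hydrolysis, and HSP90 acts on later folding states of kinases and steroid receptors. The chaperonins enclose a whole polypeptide in a ring chamber. Heat shock factors induce many of these genes by binding repeats of the heat shock element in their promoters, and the unfolded protein response of the endoplasmic reticulum induces the residents of that organelle, which folds the proteins that liver cells secrete.

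A gene was counted for a library when a peak overlapped the 1 kb on either side of an end of its gene record. Wild type ENL had such a peak at 45 of the 83 members (54.2%, 95% Wilson interval 43.6 to 64.5), against 28.6% of all protein-coding genes. Y78A had a peak at 27 members (32.5%, 23.4 to 43.2), against 14.6% of all genes. H3K9ac was found at 63 members (75.9%, 65.7 to 83.8), against 56.4% of all genes. The members thus stood above the genome-wide share in each of these lists. H3K9bhb marked 38 members (45.8%, 35.5 to 56.5) beside a background of 23.8%, and H3K9cr marked 7 (8.43%, 4.15 to 16.4) beside 4.49%. The H3K9cr share of all genes lies inside the members' interval, and the other shares lie below it. These intervals cover counting error only and take neighbouring or readthrough genes as independent.

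**Figure D1:**
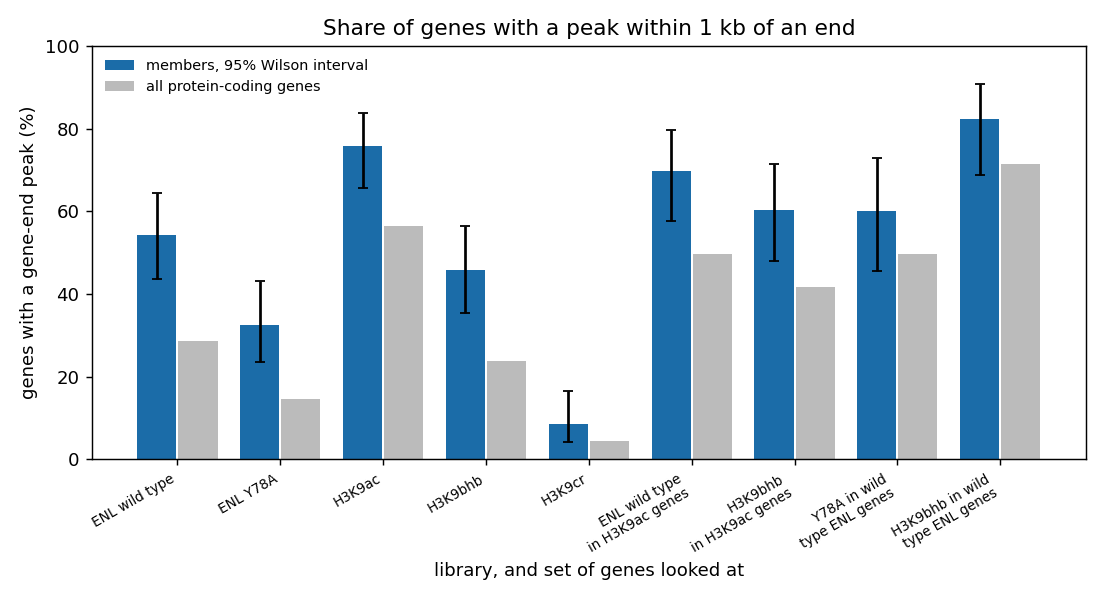
Percent of genes with a peak within 1 kb of a gene end, for the members (blue bars, with 95% Wilson intervals) and for all protein-coding genes (grey bars), in each library and within the genes that also carry H3K9ac or wild type ENL. The wild type ENL bar of the members stands at 54.2% and that of all genes at 28.6%.

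Because H3K9ac marks active promoters, the shares were also read within genes that carry it. Wild type ENL was listed at 44 of 63 members that carry H3K9ac (69.8%, 57.6 to 79.8), against 49.7% of all genes with H3K9ac. H3K9bhb was present at 38 of these 63 (60.3%, 48.0 to 71.5), against 41.6%, and Y78A at 27 (42.9%, 31.4 to 55.1), against 25.6%. The higher shares among members were therefore also seen among genes with H3K9ac.

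H3K9ac and H3K9bhb together went with ENL at nearly every member. Of the 38 members with both marks, 37 had wild type ENL (97.4%, 86.5 to 99.5), against 86.1% of all genes with both, and 26 had Y78A (68.4%, 52.5 to 80.9), against 54.1%. Where H3K9ac stood without H3K9bhb, 7 of 25 members had wild type ENL (28%, 14.3 to 47.6), close to the 23.8% of all such genes, and 1 of 25 had Y78A (4%, 0.71 to 19.5), close to 5.28%. DNAJC13, which codes for an endosomal J-domain protein, was the exception, with both marks and no ENL peak at its gene ends. Its H3K9ac fold was 5.01 and its H3K9bhb fold was 5.01. No member had H3K9bhb without H3K9ac or Y78A without wild type ENL. HSPA4 was the member with wild type ENL, Y78A and H3K9ac but no H3K9bhb.

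By family, all 3 HSP90 genes had wild type ENL, Y78A, H3K9ac and H3K9bhb. Over all genes these lists reached 28.6%, 14.6%, 56.4% and 23.8%. The CCT family had wild type ENL at 5 of 10, HSP70 at 8 of 14 and DNAJA at 3 of 4. DNAJB had it at 5 of 12, DNAJC at 16 of 29 and the small heat shock genes at 1 of 7. The 28.6% of all genes lay inside the 95% Wilson intervals of CCT (23.7 to 76.3), DNAJB (19.3 to 68.0) and the small heat shock genes (2.57 to 51.3). It lay below those of HSP70 (32.6 to 78.6), DNAJA (30.1 to 95.4) and DNAJC (37.5 to 71.6). No peak in any list lay at the ends of 19 members: CCT8L2, DNAJA4, DNAJB1, DNAJB5, DNAJB7, DNAJB8, DNAJC12, DNAJC4, DNAJC5B, DNAJC5G, DNAJC6, HSPA12B, HSPA1A, HSPA1L, HSPA2, HSPB2, HSPB3, HSPB8 and HSPB9. DNAJB1 and HSPA2 had peaks at other annotated starts, described with their families.

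**Figure D2:**
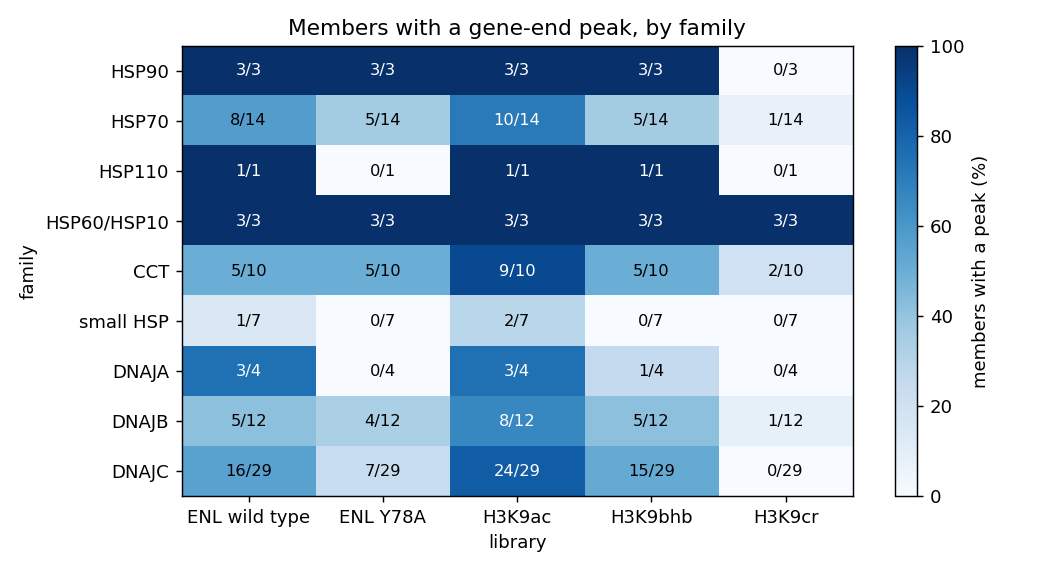
Members with a gene-end peak in each library, by family. Each cell gives the members with a peak over the members of the family, and its shade gives that share in percent; the small heat shock row is the palest, with wild type ENL at 1 of 7, and H3K9cr is at 0 of 29 DNAJC genes.

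**Figure D3:**
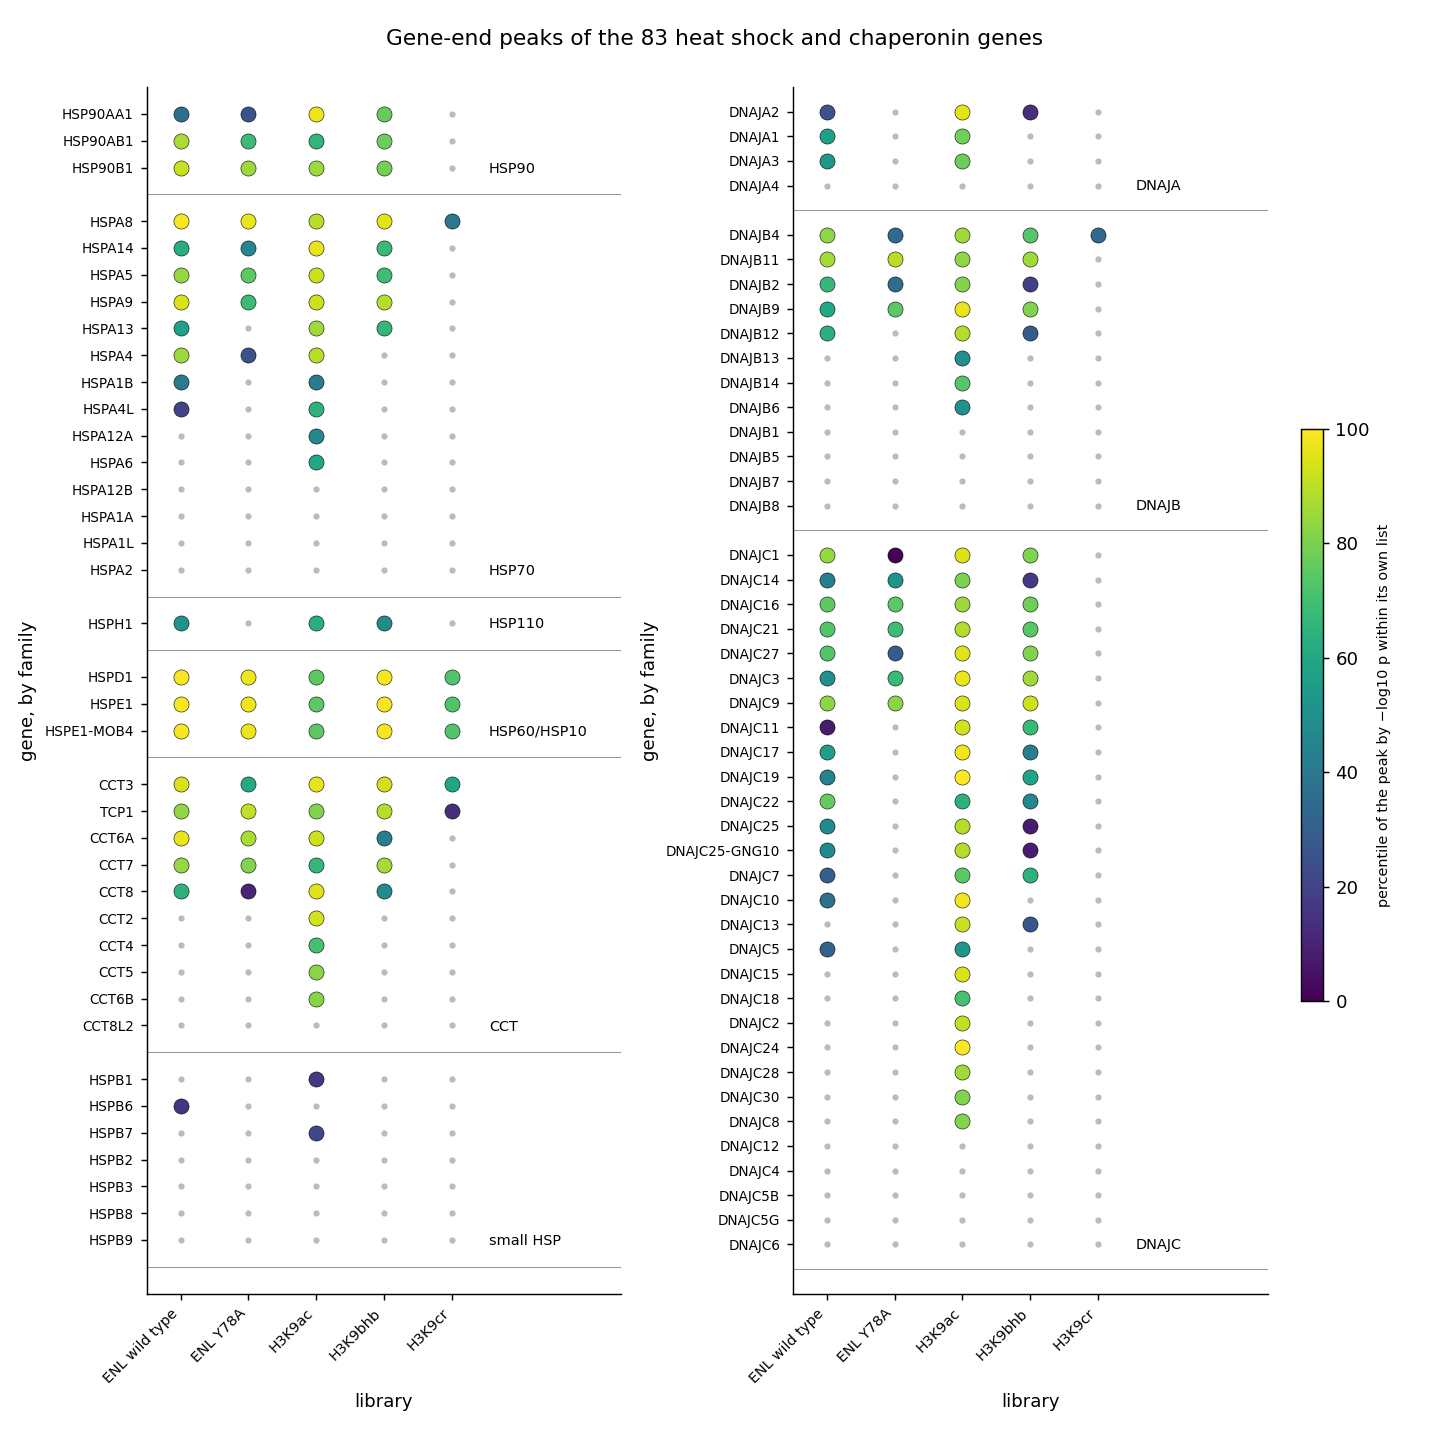
The strongest gene-end peak of each of the 83 members in each library. A large circle marks a peak, coloured by its percentile by −log10 p among all peaks of the same list, and a small grey dot marks no peak; HSPA8 and the HSPD1/HSPE1 genes are bright in both ENL columns, and 7 members have a circle in the H3K9cr column.

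The strength of a peak is given below as the fold of the summit signal over the caller's local background. These folds are the authors' values and are compared only within a list. Members' strongest wild type ENL peaks had folds from 3.81 to 8.11 with a median of 5.75, beside a median of 5.24 over all genes with a peak. The medians of members and of all genes were 5.95 and 5.31 for Y78A, then 5.64 and 5.06 for H3K9bhb. They were 3.77 and 3.84 for H3K9ac, and 4.05 and 3.81 for H3K9cr. The wild type peaks of members rested on 13 to 92 fragments at the summit, with a median of 24. Presence at the low end of that range is therefore close to the detection limit of the lists, and absence of a peak means only that none was listed.

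The strongest members of the HSP70 family were read first. HSPA8 codes for the constitutive HSC70, the abundant cytosolic HSP70 of unstressed cells, and it was among the 7 members listed in all 5 libraries. Its wild type ENL peak, at chr11:123062015-123062715, had a fold of 8.10 and 72 summit fragments and ranked at percentile 98.9 of its list by −log10 p. The Y78A fold was 8.91, and the folds of H3K9bhb, H3K9ac and H3K9cr were 7.77, 3.77 and 3.80. The peak covers an annotated start of the gene on the minus strand.

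The promoter of HSPA8 is shown because this strongly occupied start carries heat shock elements. Capitals mark the 2-unit form of the element, GAANNTTC or TTCNNGAA, and overlapping matches run together. The sequence is the 250 bases before the annotated start on the minus strand, chr11:123062137-123062386, from RefSeq on GRCh38.p14 (hg38), written 5′ to 3′.
HSPA8: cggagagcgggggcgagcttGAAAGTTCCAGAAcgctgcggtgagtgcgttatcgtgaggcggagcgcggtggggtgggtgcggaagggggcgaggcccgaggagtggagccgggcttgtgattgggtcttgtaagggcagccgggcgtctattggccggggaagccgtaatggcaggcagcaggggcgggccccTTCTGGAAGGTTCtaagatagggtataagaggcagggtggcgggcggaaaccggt

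Other cytosolic HSP70 genes carried fewer marks. HSPA4 codes for an HSP110-type exchange factor, with folds of 6.09 in wild type ENL and 4.41 in Y78A, beside 3.44 in H3K9ac. HSPA4L, a relative of HSPA4, had wild type ENL at 5.06 and H3K9ac at 3.50. HSPA14, which works with ribosomes, had folds of 5.74, 5.53, 4.54 and 5.42 for wild type ENL, Y78A, H3K9ac and H3K9bhb, at a peak that also lies near CDNF and MSANTD7. HSPA12A had H3K9ac alone at its ends: a fold of 4.08 at the far end of the gene, near SPMIP5, and of 2.88 with 9 summit fragments on the start side, near ENO4.

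The stress-inducible HSP70 genes had few peaks. HSPA1B had wild type ENL at 5.25 and H3K9ac at 3.23 and no peak in the other lists. HSPA1A and HSPA1L, its neighbours, had none in any list. HSPA1A and HSPA1B code for nearly the same protein, and their promoter windows share a run of 49 bases, so reads may have been lost or split between the copies. HSPA6, a strictly inducible HSP70, had H3K9ac at 3.67, at a peak that also lies near FCGR2A, and neither ENL peak. These inducible promoters are printed because they carry the same element as HSPA8 with less or no ENL. The windows are chr6:31827488-31827737 (HSPA1B) and chr1:161524290-161524539 (HSPA6), both on the plus strand, with capitals as above.
HSPA1B: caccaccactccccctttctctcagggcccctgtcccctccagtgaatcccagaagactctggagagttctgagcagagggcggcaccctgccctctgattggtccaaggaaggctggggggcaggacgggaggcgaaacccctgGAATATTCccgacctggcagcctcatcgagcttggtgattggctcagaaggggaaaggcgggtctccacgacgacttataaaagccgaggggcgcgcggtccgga
HSPA6: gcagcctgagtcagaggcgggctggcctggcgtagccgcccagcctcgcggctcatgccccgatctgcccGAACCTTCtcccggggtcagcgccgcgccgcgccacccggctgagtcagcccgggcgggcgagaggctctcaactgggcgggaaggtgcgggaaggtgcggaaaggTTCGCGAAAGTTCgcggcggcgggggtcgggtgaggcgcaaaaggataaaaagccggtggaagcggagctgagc

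The HSP70 genes of the organelles had wild type ENL, H3K9ac and H3K9bhb. HSPA5 codes for BiP, the HSP70 of the endoplasmic reticulum, with folds of 6.05 in wild type ENL and 6.71 in Y78A, beside 3.87 in H3K9ac and 5.52 in H3K9bhb. HSPA13, another HSP70 of that compartment, reached 6.99 in wild type ENL, 5.78 in H3K9ac and 7.05 in H3K9bhb, and had no Y78A peak. Its wild type peak rested on 15 summit fragments, at percentile 56.3 of that list. HSPA9 codes for mortalin, the mitochondrial HSP70 that draws imported proteins into the matrix. Its folds were 6.30 in wild type ENL and 5.78 in Y78A, beside 4.45 in H3K9ac and 6.44 in H3K9bhb. HSPA2, known for its role in the testis, had no peak at its gene ends but had wild type ENL at 6.45, H3K9ac at 4.44 and H3K9bhb at 6.57 at an annotated start inside the record.

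All HSP90 genes chosen by symbol were occupied by both forms of ENL. HSP90B1, the HSP90 of the endoplasmic reticulum, had the highest ENL folds of the family, with 7.31 in wild type ENL and 7.26 in Y78A, beside 3.71 in H3K9ac and 5.68 in H3K9bhb. HSP90AB1, the constitutive cytosolic HSP90, had 4.08 in wild type ENL and 4.06 in Y78A, beside 2.50 in H3K9ac and 4.11 in H3K9bhb. Its wild type peak, chr6:44245941-44247210, ends before the promoter window of its start at 44247943, which is the HSP90AB1 window that holds heat shock elements.

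HSP90AA1, the inducible cytosolic HSP90, has 2 annotated starts far apart, and they differed. At the upstream start, shared with WDR20, the folds were 5.18 in wild type ENL and 5.30 in Y78A, beside 4.92 in H3K9ac and 6.61 in H3K9bhb. At the downstream start, which holds heat shock elements, wild type ENL had 4.02 and H3K9ac 2.93, and no Y78A or H3K9bhb peak was listed. The downstream promoter of HSP90AA1 is printed for that reason (chr14:102087045-102087294, minus strand). Beside it stand the promoters of HSP90B1 (chr12:103930160-103930409, plus strand) and HSPA5 (chr9:125241344-125241593, minus strand), the members with an endoplasmic reticulum stress element (CCAAT, 9 unspecified bases, then CCACG). In the HSP90B1 and HSPA5 sequences the capitals mark that element.
HSP90AA1, downstream start: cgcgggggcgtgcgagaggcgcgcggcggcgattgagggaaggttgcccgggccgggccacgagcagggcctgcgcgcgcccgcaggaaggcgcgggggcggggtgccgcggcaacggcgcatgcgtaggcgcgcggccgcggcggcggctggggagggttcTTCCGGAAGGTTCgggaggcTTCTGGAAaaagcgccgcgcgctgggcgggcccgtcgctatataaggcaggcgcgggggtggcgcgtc
HSP90B1: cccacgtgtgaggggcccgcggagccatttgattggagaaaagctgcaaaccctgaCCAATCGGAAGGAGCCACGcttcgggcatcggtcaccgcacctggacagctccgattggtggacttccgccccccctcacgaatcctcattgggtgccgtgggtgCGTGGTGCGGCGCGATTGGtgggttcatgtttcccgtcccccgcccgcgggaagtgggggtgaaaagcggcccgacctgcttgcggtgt
HSPA5: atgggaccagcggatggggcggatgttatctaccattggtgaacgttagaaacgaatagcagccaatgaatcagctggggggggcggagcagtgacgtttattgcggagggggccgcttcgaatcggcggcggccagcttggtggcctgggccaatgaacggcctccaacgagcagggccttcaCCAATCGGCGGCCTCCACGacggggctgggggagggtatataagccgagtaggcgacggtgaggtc

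HSPH1 codes for HSP105, an HSP110 that exchanges the nucleotide of HSP70. It had wild type ENL at 5.89, H3K9ac at 3.70 and H3K9bhb at 5.22, and no Y78A peak.

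The mitochondrial chaperonin was marked in every list. HSPD1 (HSP60, the ring) and HSPE1 (HSP10, the lid) are transcribed in opposite directions from starts 105 bp apart, so they and HSPE1-MOB4 share the same peaks and are 1 observation. The wild type ENL peak, chr2:197499309-197500619, held 92 summit fragments and ranked at percentile 99.2, the highest of any member. Its folds were 6.87 in wild type ENL and 7.23 in Y78A, beside 7.94 in H3K9bhb, 2.74 in H3K9ac and 4.05 in H3K9cr. Within the members, this site had the highest H3K9bhb fold. Its H3K9ac fold was below the members' median of 3.77. The promoter before the downstream HSPD1 start is shown because it lies inside this peak and carries the heat shock element in capitals (chr2:197499841-197500090, minus strand).
HSPD1: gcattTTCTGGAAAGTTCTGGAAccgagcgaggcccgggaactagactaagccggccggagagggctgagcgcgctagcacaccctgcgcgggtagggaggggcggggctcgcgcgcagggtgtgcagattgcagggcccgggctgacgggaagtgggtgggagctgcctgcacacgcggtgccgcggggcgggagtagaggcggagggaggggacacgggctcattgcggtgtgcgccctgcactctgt

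The cytosolic chaperonin, which folds actin and tubulin, is a ring of 8 different subunits, and these fell into separate sets. TCP1, CCT3, CCT6A, CCT7 and CCT8 had wild type ENL, Y78A, H3K9ac and H3K9bhb, whereas CCT2, CCT4 and CCT5 had H3K9ac alone. CCT3 had a wild type ENL fold of 8.04 and a Y78A fold of 5.81, beside 4.86, 6.92 and 4.16 for H3K9ac, H3K9bhb and H3K9cr. TCP1 had 5.56, 6.87, 3.33, 6.01 and 3.45 in the same order. These were the CCT genes with H3K9cr.

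CCT6A, CCT7 and CCT8 had no H3K9cr peak. CCT6A had a peak of each of these lists at both gene ends. In the order wild type ENL, Y78A, H3K9ac and H3K9bhb, its folds were 6.90, 5.95, 3.03 and 4.12 at the end near PSPH and 5.43, 4.58, 4.57 and 3.86 at the end near SUMF2. Those of CCT7 were 5.30, 6.21, 2.44 and 4.84 at a site whose wild type summit lies 893 bp upstream of the start. At the CCT7 start itself, wild type ENL had 3.97, H3K9ac 2.59 and H3K9bhb 3.79, and no Y78A peak was listed. The CCT8 folds, in the same order as for CCT6A, were 6.82, 5.28, 4.89 and 5.60. Among the subunits without ENL, the H3K9ac fold was 5.85 at CCT2, above the members' median of 3.77, and 3.01 at CCT4 and 3.45 at CCT5, below it. CCT6B, a subunit known from testis, had H3K9ac at 5.36, and CCT8L2 had no peak. Several CCT peaks also lie near another gene: TSACC beside CCT3, MRPL18 beside TCP1, PRADC1 beside CCT7, and PSPH and SUMF2 beside CCT6A. The lists cannot assign such a peak to either gene.

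Small heat shock proteins, which hold unfolding proteins without ATP and are abundant in muscle and lens, had few peaks. HSPB6 had wild type ENL at 3.81 and nothing else, at a peak whose summit lies 928 bp from the gene and near PROSER3. HSPB1 (HSP27) had H3K9ac at 2.23 on its start side and 2.30 at its other end, and HSPB7 had 2.26 at its far end, the members whose strongest H3K9ac folds were lowest. The other 4 had no peak.

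Of the 4 J-domain genes of class DNAJA, whose proteins are closest to bacterial DnaJ, 3 had wild type ENL without Y78A, and DNAJA4 had no peak. DNAJA3, the mitochondrial member, had wild type ENL at 6.01 and H3K9ac at 4.19. DNAJA1 had 5.16 and 3.55 in these lists, at peaks that also lie near APTX. DNAJA2 had 4.68 in wild type ENL, 4.74 in H3K9ac and 4.13 in H3K9bhb.

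Class DNAJB held both strongly marked and unmarked genes. DNAJB9, a J-domain protein of the endoplasmic reticulum that acts on BiP, had folds of 6.36 in wild type ENL and 8.16 in Y78A, beside 5.21 in H3K9ac and 7.75 in H3K9bhb. DNAJB11, a soluble BiP partner, had 5.75, 6.98, 3.24 and 5.73 in the same order. DNAJB4 had 5.87, 4.81, 3.42 and 5.69, and was the DNAJ gene with H3K9cr at its gene ends, at 3.74. These peaks of DNAJB9, DNAJB11 and DNAJB4 also lie within 1 kb of THAP5, TBCCD1 and FUBP1, in that order. The lists cannot assign them to either gene. DNAJB12, anchored in the membrane of the endoplasmic reticulum, had 5.16 in wild type ENL, 3.65 in H3K9ac and 3.62 in H3K9bhb, without Y78A.

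DNAJB1 codes for HSP40, the inducible partner of HSP70, and shows how much the choice of start matters. It had no peak at the ends of its gene record, which runs over several annotated starts. At the annotated start 14529271 it had wild type ENL at 6.70, Y78A at 5.28, H3K9ac at 4.33, H3K9bhb at 5.73 and H3K9cr at 3.64. At the start 14518397, whose promoter holds heat shock elements, the folds were 3.74, 3.79, 2.28 and 4.72, with no H3K9cr. The promoter of the latter is printed to set beside HSPA8 (chr19:14518398-14518647, minus strand).
DNAJB1, start 14518397: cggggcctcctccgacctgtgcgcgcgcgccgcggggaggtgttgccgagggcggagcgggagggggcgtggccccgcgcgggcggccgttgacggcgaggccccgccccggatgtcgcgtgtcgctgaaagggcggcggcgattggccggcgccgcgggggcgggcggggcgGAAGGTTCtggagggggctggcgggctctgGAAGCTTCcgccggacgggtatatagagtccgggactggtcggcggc

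Class DNAJC is the largest and the most diverse, with members specialised for single clients or places. Its 4 highest wild type ENL folds were at DNAJC1, a ribosome-associated protein of the endoplasmic reticulum membrane (8.11), DNAJC21 (7.53), DNAJC27 (7.0) and DNAJC9, a histone chaperone (6.23). DNAJC21, which acts in ribosome assembly, had 7.70 in Y78A, 4.86 in H3K9ac and 6.33 in H3K9bhb. DNAJC27 had 5.46, 4.48 and 6.71, and DNAJC9 had 6.83, 3.84 and 6.45. DNAJC1 differed: its Y78A fold was 4.06, at percentile 0.553 of that list, beside 5.61 in H3K9ac and 7.14 in H3K9bhb.

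Some DNAJC genes had peaks in other lists and no Y78A peak. DNAJC19, a protein of the mitochondrial import motor, had wild type ENL at 6.10, H3K9ac at 8.28 and H3K9bhb at 6.24. DNAJC22 had 5.87, 3.0 and 4.68 in these lists. The wild type peaks of DNAJC19 and DNAJC22 were at percentiles 44.7 and 76.2 of their list, with 15 and 30 summit fragments. DNAJC24, which takes part in making diphthamide on an elongation factor, had the highest H3K9ac fold of all members at 12.1 and no other peak. That peak also lies near DCDC1. It held 44 summit fragments, below the members' H3K9ac median of 56, over a local background of 2.72 fragments.

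Y78A peaks were listed at 27 of the 45 members with wild type ENL (60%, 45.5 to 73.0), against 49.8% of all genes with wild type ENL. The same 27 are all of the members with Y78A. H3K9bhb was listed at 37 of the 45 (82.2%, 68.7 to 90.7), against 71.3%, and H3K9ac at 44 (97.8%, 88.4 to 99.6), against 98%. By class, Y78A was listed at 11 of the 24 DNAJ genes with wild type ENL (45.8%) and at 16 of the 21 other members (76.2%). The 16 include HSPD1, HSPE1 and HSPE1-MOB4, which share a single peak. The 24 include DNAJC25 and DNAJC25-GNG10, which share a peak without Y78A. Counting these genes separately widens the difference between the classes. The members without Y78A that had the highest wild type folds were HSPA13, DNAJC19, DNAJA3, HSPH1 and DNAJC22.

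The same relation was read peak by peak, over the 45 distinct wild type ENL peaks at members' ends. A Y78A peak overlapped 26 of them (57.8%), against 46.8% of the 5046 wild type peaks at the ends of any gene. H3K9bhb overlapped 36 (80%), against 66.9%, H3K9ac 43 (95.6%), against 94.3%, and H3K9cr 5 (11.1%), against 13.4%. Where they overlapped, the summits lay a median of 44 bp apart for Y78A, 67.5 bp for H3K9bhb and 125 bp for H3K9ac. Over the peaks of any gene the medians were 59, 64 and 143 bp. Where several peaks overlapped, the first along the chromosome was taken, which need not be the nearest.

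Whether a Y78A peak was listed followed the strength of the wild type peak. Wild type peaks with Y78A had percentiles from 35.6 to 99.2 with a median of 83.4, and those without had 7.09 to 76.2 with a median of 47.8. Y78A overlapped 0 of 3 member peaks below percentile 25 of the wild type list, 3 of 10 from 25 to 50, 6 of 14 from 50 to 75, and 17 of 18 above 75. Over all genes the shares were 9.42%, 22.4%, 53.7% and 88.8%. DNAJC22, at percentile 76.2, was the peak above percentile 75 without Y78A, and HSP90AA1, at percentile 35.6, was the weakest with it. The Y78A list was also shorter, with 5422 peaks against 11394, and its most frequent background was 0.845 times that of wild type. The part of depth in the missing Y78A peaks was not tested.

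**Figure D4:**
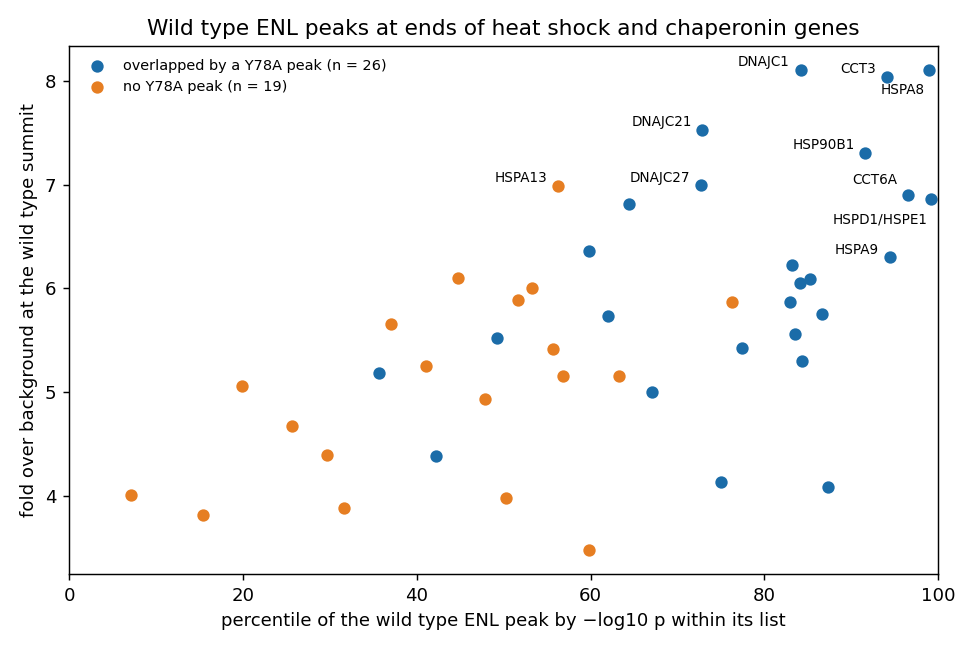
Wild type ENL peaks at members' ends, by percentile of −log10 p within the wild type list (x axis) and fold at the summit (y axis). Blue points are overlapped by a Y78A peak (n = 26) and orange points are not (n = 19); beyond percentile 75 a single point is orange, at percentile 76.2.

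Most gene-end peaks lay on the start side. Among members with a known strand, the start side held a peak at 41 of 41 for wild type ENL, 24 of 24 for Y78A, 34 of 34 for H3K9bhb, 7 of 7 for H3K9cr and 57 of 58 for H3K9ac, with HSPB7 the exception. The other end also held a wild type ENL peak at DNAJB12 and an H3K9ac peak at DNAJC11, DNAJC17, HSPA12A, HSPB1 and HSPB7. The median start-side summit lay upstream of the start, at −135.5 bp for wild type ENL, −148.5 bp for Y78A, −155 bp for H3K9bhb and −71 bp for H3K9ac. The H3K9cr median of −334 bp rests on 7 members that share 5 peaks. At 19 of the 45 members with wild type ENL (42.2%) every such peak also lay within 1 kb of another coding gene, as at 35.4% of all genes with wild type ENL.

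**Figure D5:**
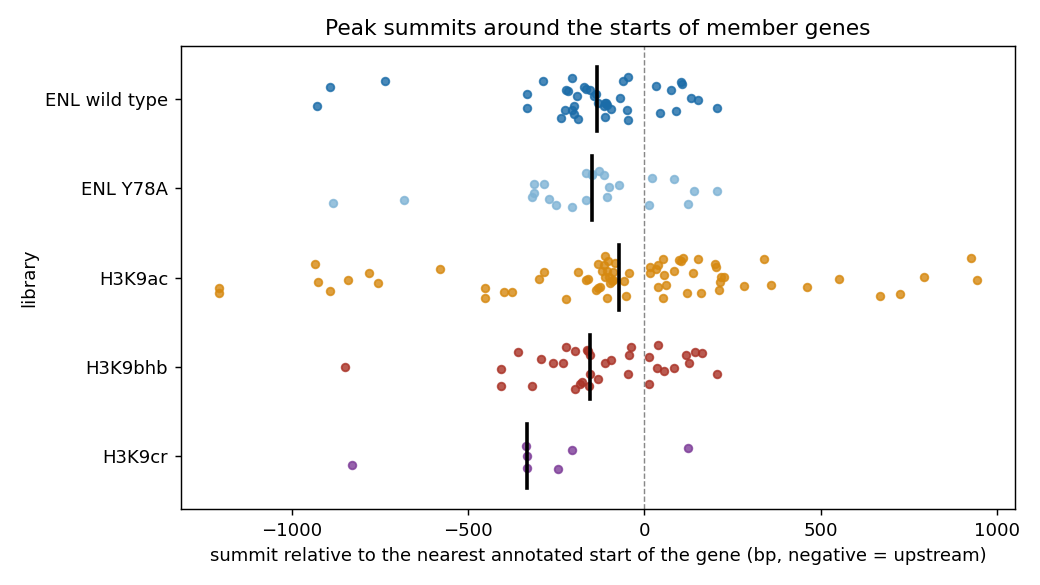
Distance in bp from each member's annotated start to the summits of its start-side peaks, negative upstream, with 1 row per library. Points are summits, vertical bars are medians (−135.5 bp in wild type ENL and −71 bp in H3K9ac), and vertical scatter within a row has no meaning.

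Counting by annotated starts gave a similar picture for the 75 members in the RefSeq promoter table. Wild type ENL was within 1 kb of a start of 43 (57.3%), against 31.2% of all genes in the table, and Y78A of 25 (33.3%), against 16.3%. H3K9ac was at 59 (78.7%), against 60.2%, H3K9bhb at 36 (48%), against 26.1%, and H3K9cr at 8 (10.7%), against 4.99%. DNAJB1 is the added H3K9cr gene.

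The members were also grouped by place in the cell, after the values were seen. The 14 assigned to the endoplasmic reticulum were HSP90B1, HSPA5, HSPA13, DNAJB9, DNAJB11, DNAJB12, DNAJB14, DNAJC1, DNAJC3, DNAJC10, DNAJC14, DNAJC16, DNAJC18 and DNAJC25. Wild type ENL was at 12 of 14 (not DNAJB14 or DNAJC18), against 28.6% of all genes, and Y78A at 8 of 14, against 14.6%. H3K9ac was at 14 of 14, against 56.4%, H3K9bhb at 11 of 14, against 23.8%, and H3K9cr at 0 of 14, against 4.49%. DNAJC3, an inhibitor of the kinase PERK, had folds of 5.52 in wild type ENL and 7.27 in Y78A, beside 4.32 in H3K9ac and 7.10 in H3K9bhb. The 8 assigned to the mitochondrion were HSPD1, HSPE1, HSPA9, DNAJA3, DNAJC11, DNAJC15, DNAJC19 and DNAJC30, with HSPD1 and HSPE1 at the same peaks. Beside the same background shares, wild type ENL was at 6 of 8 (not DNAJC15 or DNAJC30) and Y78A at 3 of 8. H3K9ac was at 8 of 8, H3K9bhb at 5 of 8 and H3K9cr at 2 of 8. Neither grouping is independent of the values that preceded it.

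Promoter letters were searched on both strands in windows from 250 bases before to 50 after each annotated start. The 2-unit heat shock element occurred in 27 of 96 member windows (28.1%) and in 11.6% of the 22199 windows of coding genes. The 3-unit form, which is 2 overlapping 2-unit matches, was in 7 (7.29%) against 0.405%, at DNAJA1, DNAJB6, HSP90AA1, HSP90AB1, HSPA6, HSPA8 and HSPD1. The endoplasmic reticulum stress element was in 2 (2.08%), at HSPA5 and HSP90B1, against 0.104%. The windows themselves were then divided by whether a wild type ENL peak overlapped them. The 2-unit form was in 11 of 52 member windows with such a peak (21.2%) and in 16 of 44 without (36.4%), beside 8.76% and 12.5% of all windows. The 3-unit form was in 4 of 52 (7.69%) and 3 of 44 (6.82%), beside 0.274% and 0.448% of all windows. A CCAAT box was in 38.5% of member windows against 34.7%, a GC box (GGGCGG) in 68.8% against 56.3%, a TATA box (TATAAA) in 12.5% against 9.47%, an E box (CACGTG) in 9.38% against 8.34% and a cyclic AMP element (TGACGTCA) in 3.13% against 2.26%. The CCAAT box overlaps the stress element, which begins with it. A match describes letters and is not a bound site.

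The partners and regulators of these chaperones had wild type ENL at 27 of 51 genes, a higher share than the 28.6% of all genes. Y78A was at 16 of 51, a share above the 14.6% of all genes. The shares of H3K9ac (44 of 51) and H3K9bhb (22 of 51) were above 56.4% and 23.8%. H3K9cr was at 2 of 51, a share near 4.49%. Among exchange factors and regulators of HSP70, a peak of wild type ENL lay at 12 of 14 and of Y78A at 8, beside the same 28.6% and 14.6% of all genes. ST13, which stabilises the client-bound state of HSP70, had folds of 7.25 in wild type ENL and 5.50 in Y78A, beside 3.98 in H3K9ac and 6.66 in H3K9bhb. HYOU1, the exchange factor of BiP, had 6.24, 6.70, 3.31 and 5.55.

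Of 18 genes grouped as cochaperones of HSP90, 9 carried wild type ENL and 5 carried Y78A, again beside 28.6% and 14.6%. The group includes TRAP1, a mitochondrial HSP90 that the symbol rule leaves out, which had H3K9ac at 3.40 and no other gene-end peak. STIP1, which links HSP70 to HSP90, had 7.03 in wild type ENL and 6.59 in Y78A, beside 2.91 in H3K9ac, 4.20 in H3K9bhb and 3.54 in H3K9cr. Prefoldin hands clients to the CCT ring, and PDRG1 and URI1 were grouped here with its subunits. The group had wild type ENL at 1 of 8 genes and H3K9ac at 6, beside 28.6% and 56.4%. The heat shock factors had wild type ENL at 2 of 6, a share near the 28.6% of all genes. HSF1, the main heat-responsive factor, had H3K9ac at 2.83 and no ENL at its gene ends. HSF2 had wild type ENL at 4.31, H3K9ac at 4.78 and H3K9bhb at 6.24.

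The lists held 11394 peaks for wild type ENL, 5422 for Y78A, 31493 for H3K9ac, 9176 for H3K9bhb and 3852 for H3K9cr on the 24 standard chromosomes. The smallest deposited −log10 q was between 2.02 and 2.05 in the ENL and H3K9bhb lists but 1.31 in H3K9ac and 1.34 in H3K9cr. Of 15 hepatocyte and HepG2 marker genes, 10 had H3K9ac and 9 had wild type ENL, beside 56.4% and 28.6% of all genes. ALB, AFP, TTR, SERPINA1 and FGB had no gene-end peak in any list, and peaks elsewhere in these genes were not searched. Of 5 blood, 4 fibroblast and muscle, and 3 neuron markers, CD8A had H3K9ac and none had ENL at a gene end.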

How the data were processed

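CUT&Tag peak lists of 5 HepG2 libraries, 1 per group, were analysed as deposited; each title gave the group, also for H3K9ac, whose peak names begin with ENL1. The tools FastQC, MACS2, Bowtie2 and deepTools and the assembly hg38 are listed per the submitters' processing notes. The settings, the control, the duplicate handling and the sequencing depth were not given in the sources used here. Per the file headers' narrowPeak layout, the deposited columns are the fold (ratio) of summit over background, −log10 p and −log10 q, a score of 10 times −log10 q, and positions and summit offsets in base pairs.

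Peaks on the 24 standard chromosomes were overlapped by at least 1 bp with windows of 1 kb around both ends of 20037 RefSeq protein-coding genes (Python 3.11.15, pandas 2.3.3, scipy 1.17.1; checked with bedtools 2.31.1 on simulated data). The gene table gives no strand, so strand came from the RefSeq promoter table, which holds 75 of the 83 members. Fragments at summits were recovered from the deposited fold and −log10 p within a relative tolerance of 3e-05, and came out whole for 100% of the sampled peaks. They set the precision of a peak. Tagmentation is easier in accessible DNA, so a shared peak cannot tell a mark from accessibility.

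Members, families and gene lists were chosen with earlier results of these data known. Values were named for all HSP90, HSPH, HSPD, HSPE and CCT/TCP1 genes, the 4 highest wild type ENL folds of each other family, members with H3K9cr, with Y78A but not wild type ENL, or with H3K9bhb but not H3K9ac, and the 5 highest wild type folds without Y78A. Other genes given with values, among them HSPA5, HSPA1B, HSPA6, HSPA2, DNAJB1, DNAJC3, DNAJC13, DNAJC24 and the partner genes, were chosen after their values were seen. Shares have 95% Wilson intervals. Alternatives changed the window, overlap, threshold, list length, gene end and members.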

Additional observations from a re-analysis of the deposited data

How the results depend on the processing

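Of the recomputed counts, 80 stayed within 1.5 times the reported one and 7 did not. With each list limited to its 3852 strongest peaks, wild type ENL was at 22 members (26.5%), against 11.9% of all genes. Y78A was at 22 (26.5%), against 10.7%, H3K9ac at 28 (33.7%), against 16.9%, and H3K9bhb at 26 (31.3%), against 11.4%. Wild type ENL with H3K9bhb was at 18 members. Of the 21 wild type peaks then left at members, Y78A overlapped 17 and H3K9bhb 16. For these joint counts no share over all genes was taken at this list length, so they are not read as particular to members. The fewer wild type and H3K9ac members follow from the shorter lists; wild type ENL and Y78A did not differ in number of members there. H3K9cr was at 4 members (4.82%) with a −log10 q of at least 5, against 1.51% of all genes. When the whole gene was searched it was at 14 (16.9%), against 9.34%. Over 10 settings, the members' share divided by that of all genes was 1.71 to 2.24 for wild type ENL, 1.95 to 2.55 for Y78A, 1.26 to 1.99 for H3K9ac, 1.70 to 2.75 for H3K9bhb and 1.76 to 3.20 for H3K9cr. Annotated starts, leaving out readthrough genes and leaving out HSPA1A, HSPA1B and HSPA1L were alternatives chosen after seeing the data. Wild type ENL was at 43 of 81 members without readthrough genes and at 44 of 80 without the HSPA1 copies. No paired analysis was possible because each group is 1 library. Summits of 13 to 92 fragments limit which wild type peaks could be listed.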

Other observations

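H3K9ac stood without any other gene-end peak at 18 of 83 members (21.7%), beside 24.7% of all genes. Among genes with H3K9ac the shares were 28.6% of members and 43.9% of all genes. The strongest was DNAJC24 at percentile 99.7 of the H3K9ac list, followed by DNAJC15, a protein of the mitochondrial import motor, at 94.2 and a fold of 5.98, and CCT2 at 93.2. The lowest were HSPB1 at percentile 16.1 and HSPB7 at 21.4. The median percentile was 76.9 over these 18 members and 88.5 over the 44 with H3K9ac and wild type ENL, beside 78.6 over all genes with H3K9ac. The ranges of the members were 16.1 to 99.7 and 41.4 to 99.5.

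Peaks inside genes added members that gene ends missed. Searching the whole gene added 6 members for wild type ENL (DNAJB1, DNAJC12, DNAJC13, DNAJC15, HSPA12A and HSPA2), 4 for Y78A, 5 for H3K9ac and 6 for H3K9bhb. The share of all genes rose too, from 28.6% to 35.9% for wild type ENL and from 4.49% to 9.34% for H3K9cr, and the members' share divided by it went from 1.89 to 1.71 and from 1.88 to 1.81. For H3K9cr it added 7: DNAJB1, DNAJC12, DNAJC13, DNAJC15, DNAJC25, DNAJC25-GNG10 and DNAJC5. DNAJC15 thus had a peak of every library within the gene or 1 kb of it, with only H3K9ac at its ends.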
